A study of Mus musculus with 26 samples.

Results

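The genes described here are 38 liver genes named as targets of PPAR-alpha or as enzymes, carriers and partners of fatty acid oxidation. They were found by their symbols among the 54532 gene rows of a combined table of RNA-seq counts, each symbol gave 1 row, and all 38 were among the 14415 genes with enough counts to be tested. The livers came from C57BL/6 mice that had received benoxacor, a herbicide safener, by gavage once on each of 3 days (0, 0.5, 5 or 50 mg/kg each time), and they were sampled 24 h after the last of these. Before dosing, the mice had been acclimatised between 4 and 8 weeks of age, and bedding had been mixed among cages to even out their gut microbes. There were 5, 5, 8 and 8 mice by rising dose, 26 in all, with 1 library each. The 0 mg/kg mice are the only controls, no allele or second agent is named, and the sources used here do not give the vehicle or the sex.

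PPAR-alpha is a nuclear receptor that binds fatty acids and fibrate drugs and, paired with a retinoid X receptor, switches on genes that take up, activate, transport and oxidise fatty acids. In liver it drives the response to fasting, when fatty acids released from fat are burned in mitochondria and peroxisomes, made into ketone bodies and partly diverted to omega-hydroxylation in the endoplasmic reticulum. Cyp4a10, Cyp4a14, the Acot genes, Ehhadh, Vnn1 and Pdk4 are commonly used in rodents as readouts of the receptor, and many industrial and agricultural chemicals induce them.

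Mouse numbers form 2 runs. That from 601 to 616 holds 15 mice (4, 3, 4 and 4 by rising dose) and that from 619 to 632 holds 11 (1, 2, 4 and 4). No label explains the gap between them, and each dose comparison was fitted with the run as a term. Libraries held 5433074 to 9088626 counts, with a median of 7105531. Levels are given as CPM, a count rescaled to a common library total, on library sizes scaled by the trimmed mean of M-values. Replicate numbers within a dose follow accession order and only name a mouse.

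Some libraries stood apart. Replicates 6 and 8 at 5 mg/kg, both of the higher-numbered run, held 372 and 694 CPM of 5 adipocyte markers (Adipoq, Lep, Plin1, Cfd and Fabp4) against 3.71 to 28.2 CPM in the other 24, with none of the 5 at 0 in either. Replicate 8 also held 3514 CPM of 5 steroid-producing adrenal markers (at most 18.4 CPM elsewhere), 56.1 CPM of 4 pancreas markers (at most 0.297 in the other 24) and 361 CPM of 6 stellate cell and fibroblast markers (at most 283). Replicate 6 also held 14.5 CPM of 4 skeletal muscle markers (at most 2.85 in the other 24). Replicates 1 and 2 at 0.5 mg/kg held 2311 and 3233 CPM of the acute phase gene Saa1, against at most 655 CPM in the others. Hepatocyte markers (7, led by Alb) were detected in all libraries and summed to 42840 to 123300 CPM. Values without these libraries stand beside the results that they move most.

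The receptor with its partner binds 2 copies of the sequence AGGTCA in the same direction with 1 base between them. Of the 38 genes, 32 had an entry among the RefSeq promoters (GRCm38.p6, 250 bases before to 50 after each start), and the entries were searched on both strands for that repeat. Cyp4a10, Cyp4a14, Cyp4a31, Acaa2, Angptl4 and Vnn1 had no entry and were not searched. At most 2 mismatches to the 12 fixed bases were found in 6 of the 32 genes (18.8%), against 4.4% of the 27025 genes with a promoter entry. At most 1 mismatch was found in 1 of the 32 (3.12%; 0.644% of all), and none matched fully (0.0481% of all). These 6 stretches are shown because they are the closest matches among the 32 genes searched. Each is read 5′ to 3′ on the strand that holds the repeat, with the match in capitals.
Fabp1: tcagatatAGGCCATAGGTCAgtgattgt
Acot4: gcacagacCGGCCAAAGGTCAtgcttcgg
Cd36: atccaagtAAGTCAGAGGCCAgagaacca
Creb3l3: ctgtaagtAGGGGAGAGGTCAcacagacc
Plin2: tctgacttAGGTCAGGGGTCCtgaaagct
Slc25a20: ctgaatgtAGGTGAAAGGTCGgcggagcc

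In Fabp1 (chr6:71199804-71199832, minus strand) the match lay 67 to 55 bases before the start and carried the single change T4C, counted from 1 at the first base of the match. In Acot4 (chr12:84038358-84038386, minus strand) it lay 13 to 1 bases before the start, with A1C and T4C. Cd36 (chr5:17835939-17835967, plus strand) had it 63 to 51 bases before the start. The Plin2 match (chr4:86670264-86670292, plus strand) lay 225 to 213 bases before the start, that of Creb3l3 (chr10:81092780-81092808, minus strand) 209 to 197 bases before it, and that of Slc25a20 (chr9:108662134-108662162, plus strand) 7 to 19 bases after it. A match of letters is a description and not a bound site.

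No gene of the 38 passed an adjusted p of 0.05 in any of the 7 comparisons made (edgeR's quasi-likelihood test, Benjamini-Hochberg over all genes), and neither DESeq2 nor limma-voom called one. Levels differed from mouse to mouse, in controls as in dosed mice. Cyp4a14, an omega-hydroxylase of fatty acids, spanned 20.9 to 1146 CPM over the 26 livers, 54.8-fold, and both extremes were mice at 5 mg/kg. The highest was replicate 6, and without replicates 6 and 8 the highest was 556 CPM and the span 26.6-fold. Acot3, a peroxisomal acyl-CoA thioesterase, spanned 359-fold, but its lowest library held 1 count. Cpt1a, the gatekeeper of mitochondrial fatty acid entry, spanned only 1.91-fold.

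The omega-hydroxylases open a side route in which the far end of a fatty acid is oxidised. Their 4 genes lie together on mouse chromosome 4 (mm10), with Cyp4a14 at chr4:115486200-115496142 on the minus strand and Cyp4a10 at chr4:115518264-115533649 on the plus strand. Cyp4a14 stood at 89.2, 49.1, 547, 32 and 272 CPM in the 5 controls and at 48.3, 60.1, 85.4, 257 and 556 CPM at 0.5 mg/kg. The lowest, median and highest mice were at 20.9, 88.3 and 1146 CPM at 5 mg/kg and at 91.8, 142 and 431 CPM at 50 mg/kg. An undosed mouse was thus above every mouse at 50 mg/kg, and the doses overlapped throughout. The log2 fold changes of Cyp4a14 against 0 mg/kg were -0.40 ± 0.98 (SE) for the 0.5 mg/kg mice, 0.14 ± 0.86 for those given 5 mg/kg and -0.06 ± 0.84 for those given 50 mg/kg, with adjusted p-values of 0.979, 0.979 and 0.9995 by edgeR.

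Cyp4a10, its neighbour on chromosome 4, gave 94.9, 85.3, 323, 74.8 and 148 CPM in controls and 88.9, 67.4, 157, 343 and 341 CPM at 0.5 mg/kg. It ran from 63.3 through a median of 148 to 484 CPM at 5 mg/kg and from 101 through 164 to 281 CPM at 50 mg/kg. The same undosed mouse, replicate 3, was the high control for both genes. Cyp4a32 gave 16, 56.3, 62.9, 40.8 and 48.8 CPM in controls and 45.7, 40, 35.3, 86 and 26.1 CPM at 0.5 mg/kg. At 5 mg/kg it ran from 20 through 38.3 to 47 CPM and at 50 mg/kg from 15.3 through 26 to 81 CPM. Cyp4a31 stayed low, at 1.89 to 13.1 CPM. Of 100-base windows along their exons, 12.2% for Cyp4a10, 7.33% for Cyp4a31 and 18.2% for Cyp4a32 occur in another gene as well, against 0% for Cyp4a14, so counts among the first 3 are uncertain.

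The acyl-CoA thioesterases split activated fatty acids into free acid and coenzyme A, Acot1 in the cytosol, Acot2 in mitochondria, Acot3 and Acot4 in peroxisomes. Acot4 gave 30.1, 42.9, 132, 25.4 and 40.2 CPM in controls and 35.7, 46.5, 49.5, 68.3 and 60.3 CPM at 0.5 mg/kg, then 19.1, 44.5 and 106 CPM (lowest, median, highest) at 5 mg/kg and 36.3, 51.3 and 163 CPM at 50 mg/kg. Acot3 gave 0.56, 1.16, 16.5, 0.536 and 2.37 CPM in controls and 1.37, 1.89, 2.66, 3.47 and 4.21 CPM at 0.5 mg/kg, then 0.104, 3.84 and 13.4 CPM at 5 mg/kg and 0.159, 2.34 and 37.2 CPM at 50 mg/kg. Acot1 gave 10.1, 13.8, 41.7, 14.3 and 15.2 CPM in controls and 10, 9.57, 19, 48.3 and 35.6 CPM at 0.5 mg/kg, then 7.37, 13.7 and 24.1 CPM at 5 mg/kg and 12.1, 17.2 and 32.2 CPM at 50 mg/kg. In each of the 3, control replicate 3 was the high control, and the doses overlapped. Acot2, at 0.196 to 5.49 CPM, was again highest in control replicate 3. Acot1 (12.4%), Acot2 (17.1%) and Acot3 (13.8%) share exonic windows with a relative, Acot4 few (0.336%).

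**Figure D1:**
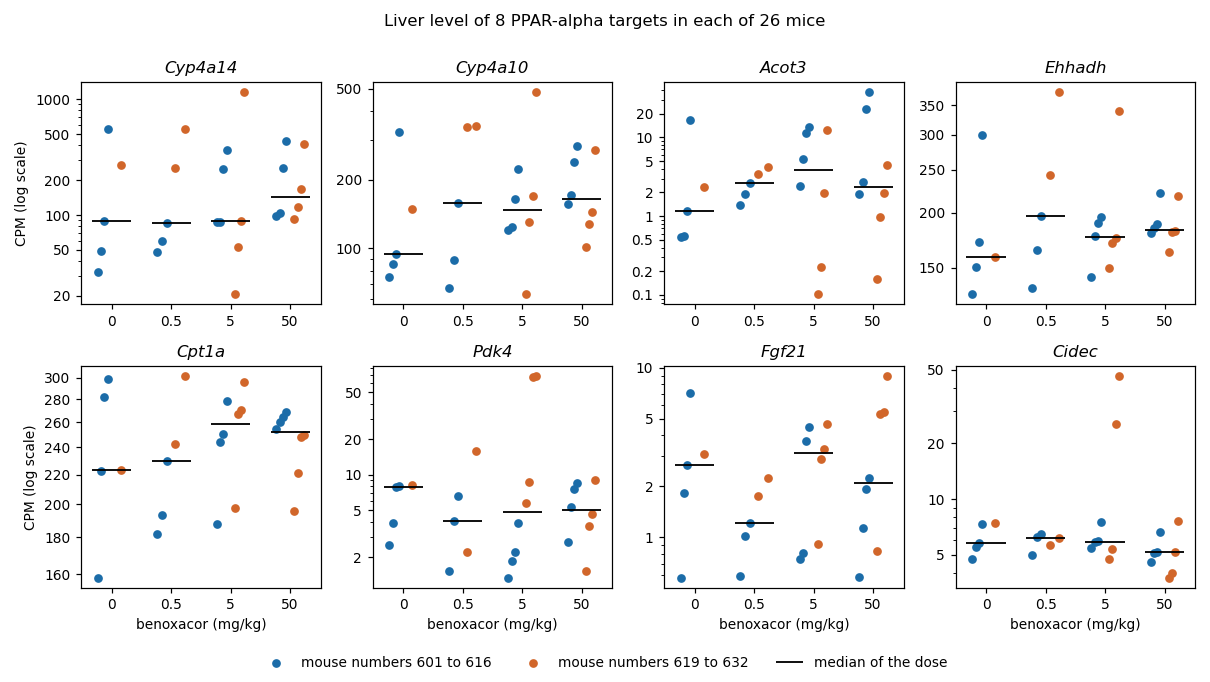
Level of 8 genes in each of 26 livers (CPM, log scale) against benoxacor dose; points are mice, blue for numbers 601 to 616 and orange for 619 to 632, and lines are the median of each dose. The 4 doses overlap in every panel, and 1 of the 5 undosed mice has 547 CPM of Cyp4a14.

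The carnitine shuttle carries long-chain fatty acids into mitochondria. Cpt1a, which makes the acyl-carnitine at the outer membrane, gave 158, 222, 282, 298.8 and 223 CPM in controls and 230, 193, 182, 301 and 243 CPM at 0.5 mg/kg, then 188, 259 and 295 CPM (lowest, median, highest) at 5 mg/kg and 196, 252 and 269 CPM at 50 mg/kg. Its log2 fold change at 50 mg/kg was 0.04 (95% interval -0.28 to 0.35), so that a 1.5-fold difference in either direction lay outside the interval. Slc22a5, the plasma membrane carnitine transporter, gave 15, 28.4, 43.9, 22.1 and 21.1 CPM in controls and 25.1, 17.9, 22.2, 44.1 and 23.9 CPM at 0.5 mg/kg, then 15, 18.1 and 31.4 CPM at 5 mg/kg and 16.5, 21.8 and 34.4 CPM at 50 mg/kg. Of its exonic windows, 12.9% also lie in Slc22a21. Cpt2 and the carrier Slc25a20 spanned 2.88-fold and 2.13-fold over all mice.

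Mitochondrial beta-oxidation shortens the chain by repeated cycles of dehydrogenation, hydration and thiolysis. Hadhb, the thiolase subunit of the trifunctional protein, gave 129, 124, 186, 146 and 153 CPM in controls and 111, 167, 182, 224 and 201 CPM at 0.5 mg/kg, then 139, 161 and 284 CPM at 5 mg/kg and 132, 165 and 207 CPM at 50 mg/kg; 14.8% of its exonic windows also lie in Gm13910. Acadm, the medium-chain acyl-CoA dehydrogenase, gave 209, 197, 329, 277 and 294 CPM in controls and 191, 211, 300, 443 and 444 CPM at 0.5 mg/kg, then 229, 311 and 472 CPM at 5 mg/kg and 225, 281 and 401 CPM at 50 mg/kg. The other 5 (Acadl, Acadvl, Hadha, Acaa2 and Eci1) spanned 2.26-fold to 2.71-fold over mice. All 7 had positive log2 fold changes against the controls at 0.5 mg/kg (0.10 to 0.23), 5 mg/kg (0.10 to 0.26) and 50 mg/kg (0.05 to 0.16), and none passed. These 3 comparisons share the same 5 controls.

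Peroxisomes start the oxidation of very long chains and of the dicarboxylic acids that omega-hydroxylation makes. Ehhadh, their bifunctional enzyme, gave 131, 171, 300, 151 and 159 CPM in controls and 135, 164, 196, 375 and 244 CPM at 0.5 mg/kg, then 143, 176 and 339 CPM at 5 mg/kg and 163, 183 and 221 CPM at 50 mg/kg. Acaa1b, a peroxisomal thiolase, gave 836, 1312, 1834, 780 and 836 CPM in controls and 715, 403, 1167, 1839 and 1359 CPM at 0.5 mg/kg, then 375, 794 and 1390 CPM at 5 mg/kg and 721, 882 and 1197 CPM at 50 mg/kg; 19.3% of its windows lie in its neighbour Acaa1a, which spanned 2.6-fold over mice (105.5 to 273.9 CPM). Pex11a, which promotes peroxisome division, gave 57.8, 52.4, 89.5, 64.1 and 61.2 CPM in controls and 57.7, 57.4, 75.1, 102 and 101 CPM at 0.5 mg/kg, then 52.3, 67.8 and 97.5 CPM at 5 mg/kg and 61.4, 76.8 and 88.5 CPM at 50 mg/kg. For these genes too the high control was replicate 3.

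Among the auxiliary enzymes, Ech1, a dienoyl-CoA isomerase, gave 173, 172, 285, 225 and 199 CPM in controls and 176, 245, 256, 387 and 376 CPM at 0.5 mg/kg, then 198, 268 and 391 CPM at 5 mg/kg and 172, 245 and 328 CPM at 50 mg/kg. Eci2, an enoyl-CoA isomerase, gave 115, 150, 226, 165 and 172 CPM in controls and 142, 199, 183, 268 and 248 CPM at 0.5 mg/kg, then 141, 165 and 207 CPM at 5 mg/kg and 129, 183 and 237 CPM at 50 mg/kg. Hsdl2 gave 90.2, 77.9, 135, 79.8 and 118 CPM in controls and 117, 151, 114, 122 and 116 CPM at 0.5 mg/kg, then 75.3, 96.7 and 112.7 CPM at 5 mg/kg and 79.5, 105 and 140 CPM at 50 mg/kg. In all 3 the doses overlapped, and the highest mice at 0.5 mg/kg lay above every control.

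Of the secreted and surface products, Fgf21 is a fasting hormone of the liver. It gave 1.82, 0.579, 7.14, 2.68 and 3.1 CPM in controls and 0.589, 1.21, 1.01, 2.23 and 1.76 CPM at 0.5 mg/kg, then 0.749, 3.12 and 4.67 CPM at 5 mg/kg and 0.584, 2.08 and 8.93 CPM at 50 mg/kg. Angptl4, which inhibits lipoprotein lipase, gave 56.7, 74.7, 138, 72 and 58.7 CPM in controls and 48.1, 36.4, 40.2, 189 and 82.4 CPM at 0.5 mg/kg, then 29.2, 56.9 and 112 CPM at 5 mg/kg and 31, 52.8 and 122 CPM at 50 mg/kg. The surface pantetheinase Vnn1 gave 20, 14.8, 50.2, 30.7 and 35.9 CPM in controls and 40.6, 34.9, 29.2, 60.3 and 45.3 CPM at 0.5 mg/kg, then 18.4, 24.2 and 46.1 CPM at 5 mg/kg and 21.2, 33.1 and 42.6 CPM at 50 mg/kg. All 3 were high in control replicate 3, and Angptl4 and Vnn1 were higher still in replicate 4 at 0.5 mg/kg.

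Fabp1, the fatty acid binding protein of hepatocytes, gave 4060, 4307, 5343, 3922 and 7710 CPM in controls and 6747, 4832, 4899, 4514 and 4763 CPM at 0.5 mg/kg, then 1919, 3698 and 6090 CPM at 5 mg/kg and 3223, 4619 and 6088 CPM at 50 mg/kg. The fatty acid translocase Cd36 gave 38.2, 34.5, 42, 19.4 and 100 CPM in controls and 66.7, 52, 45.3, 35.1 and 32.8 CPM at 0.5 mg/kg, then 29.5, 38.4 and 222 CPM at 5 mg/kg and 21.9, 38.1 and 68.1 CPM at 50 mg/kg. The droplet coat Plin2 gave 160, 218, 343, 334 and 217 CPM in controls and 218, 216, 253, 562 and 388 CPM at 0.5 mg/kg, then 144, 282 and 389 CPM at 5 mg/kg and 157, 265 and 434 CPM at 50 mg/kg. Control replicate 5, not replicate 3, held the most Fabp1 and Cd36 of the 5 controls. Control replicates 4 and 5 each led the controls in 4 of the 38 genes, against 22.9% and 25.1% of all tested genes.

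Cidec, which enlarges lipid droplets, gave 4.76, 5.79, 5.49, 7.38 and 7.39 CPM in controls and 6.48, 4.99, 6.22, 6.2 and 5.62 CPM at 0.5 mg/kg, then 4.74, 5.89 and 46.3 CPM at 5 mg/kg and 3.77, 5.15 and 7.63 CPM at 50 mg/kg. Pdk4, the kinase that shuts pyruvate dehydrogenase and spares glucose, gave 3.92, 8.11, 7.82, 2.55 and 8.28 CPM in controls and 6.67, 4.04, 1.52, 15.9 and 2.22 CPM at 0.5 mg/kg, then 1.35, 4.83 and 68.7 CPM at 5 mg/kg and 1.53, 5.02 and 8.98 CPM at 50 mg/kg. The high values at 5 mg/kg are those of the libraries with adipocyte markers. In replicates 6 and 8, Pdk4 stood at 67 and 68.7 CPM (1.35 to 15.9 in the other 24), Cidec at 25.6 and 46.3 CPM (3.77 to 7.63) and Cd36 at 162 and 222 CPM (19.4 to 100), while Fabp1 stood at 2529 and 1919 CPM (3093 to 7710). Adipose tissue expresses Cidec, Cd36 and Pdk4 as well, and replicate 8 held adrenal and pancreas markers too; the part of RNA from other tissues in these values was not tested. In these bulk livers, fewer cells of a type and less RNA per cell cannot be told apart.

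**Figure D2:**
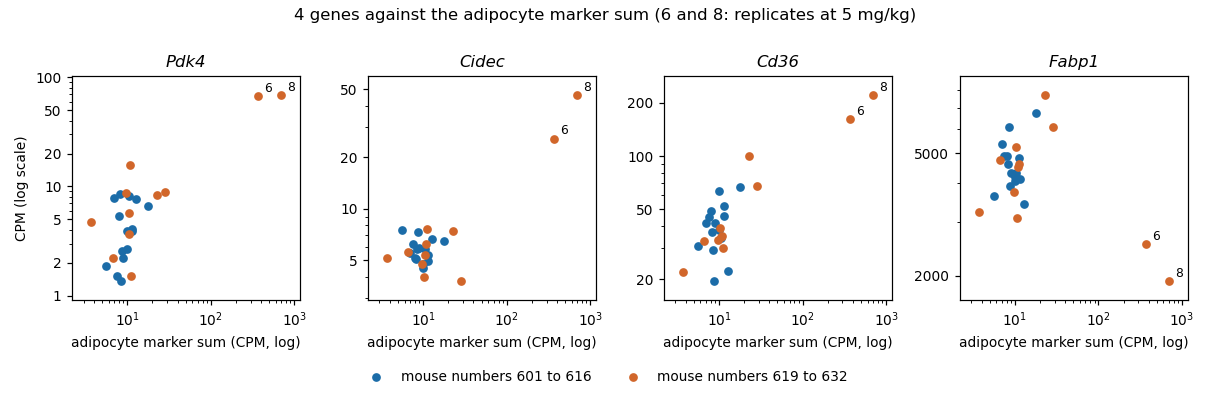
CPM of Pdk4, Cidec, Cd36 and Fabp1 against the summed CPM of 5 adipocyte markers, both on log scales, with 1 point per mouse (blue for numbers 601 to 616, orange for 619 to 632). Replicates 6 and 8 at 5 mg/kg, with marker sums of 372 and 694 CPM, lie above all other mice for the first 3 genes and below them for Fabp1.

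Per kilobase of exon, Fabp1 had by far the highest level, with a median of 7986 CPM per kb over mice, followed by Acaa1b at 436 and the mitochondrial thiolase Acaa2 at 377 CPM per kb. Cyp4a10 stood at 72.4 and Cyp4a14 at 38.7 CPM per kb. Acot3 and Acot2 were lowest, at 0.693 and 0.604 CPM per kb, and their lowest libraries rest on 1 count each. The remaining genes lay between: Ucp2 at 2.1, Creb3l3 (a liver transcription factor that works with the receptor) at 95.1, Aldh3a2 (fatty aldehyde dehydrogenase) at 38.9 and Mgll (monoacylglycerol lipase) at 23.3 CPM per kb.

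At 50 against 0 mg/kg, 0 of 38 genes were called, against 0.00694% of all tested genes (1 gene, Zbtb16). At an unadjusted p under 0.05 there were again 0 (5.11% of all genes; 0 by DESeq2). A positive log2 fold change was found in 21 of 38 (51.1% of all genes), and the median was 0.02 (all genes 0.01). The smallest p-values belonged to Pex11a at 0.20 ± 0.17 on the log2 scale, Acot4 at 0.52 ± 0.43, Acot3 at 1.18 ± 0.995, Hadhb at 0.16 ± 0.17 and Cidec at -0.40 ± 0.44, with adjusted p-values of 0.9903 to 0.9974 by edgeR. In the higher-numbered run alone, where 1 mouse is the only control, Acot3 stood at -0.30. For 28 of 38 genes the 95% interval lay within 2-fold in both directions, and for 22 within 1.5-fold. The 10 with wider intervals include Cyp4a14 (-1.80 to 1.68), Cyp4a10, Pdk4 and Fgf21, so for each of these a 2-fold difference in at least 1 direction lay inside the interval.

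At 5 against 0 mg/kg, 0 of 38 were called by edgeR (0% of all genes), and 0 had an unadjusted p under 0.05 (6.18% of all genes; 1 by DESeq2). Positive values were found in 22 of 38 (51.9% of all genes), with a median of 0.05 (all genes 0.01). The smallest p-values were those of Fabp1 at -0.45 ± 0.23 (adjusted p = 0.780), Cidec at 0.80 ± 0.45, Hadhb at 0.26 ± 0.18, Acaa1b at -0.41 ± 0.29 and Ech1 at 0.24 ± 0.19. Without the 2 libraries with adipocyte markers Cidec stood at -0.08 and Fabp1 at -0.28, and 16 of 38 genes were positive (50.2% of all genes). In the lower-numbered run alone Fabp1 stood at 0.03.

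At 0.5 against 0 mg/kg, 0 of 38 were called (0% of all genes), and 1 had an unadjusted p under 0.05 (6.99% of all genes; 1 by DESeq2). It was Fgf21, at -1.42 ± 0.65 (adjusted p = 0.669, edgeR), with control and dosed mice overlapping. Fgf21 was low, with a median of 2.08 CPM over the 26 mice and a lowest count of 4. Positive values were found in 27 of 38 (50.8% of all genes), with a median of 0.15 (all genes 0.00493 in log2). The next smallest p-values were those of Hsdl2 at 0.30 ± 0.16, Ech1 at 0.38 ± 0.21, Eci2 at 0.33 ± 0.19 and Vnn1 at 0.44 ± 0.28. Without replicates 1 and 2, the 0.5 mg/kg mice with high Saa1, 3 mice remained at that dose. Over the 38 genes, the median log2 difference from each gene's median over mice was -0.347 in replicate 1 and -0.289 in replicate 2. It was 0.0511, 0.602 and 0.435 in replicates 3, 4 and 5, which remained. Replicates 4 and 5 are of the higher-numbered run, which holds 1 control. In that refit 0 of 38 genes passed. An unadjusted p under 0.05 was found for 10, all positive (11% of all genes in either direction). Positive values were found in 32 of 38 (46.3% of all genes), with a median of 0.46. The part of the low levels of replicates 1 and 2 in this was not tested. The smallest p-values there were those of Pex11a at 0.52 ± 0.19, Ech1 at 0.61 ± 0.23 and Eci2 at 0.51 ± 0.21 (adjusted p of 0.412 to 0.414, edgeR). Replicate 4 at 0.5 mg/kg, of the higher-numbered run, held the highest level of all 26 mice in 18 of the 38 genes, against 3.61% of all tested genes.

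No gene of the 38 had dosed and control mice that did not overlap, at any dose. Of all tested genes, 0.166% did not overlap for the 50 mg/kg mice, 0.222% for those given 5 mg/kg and 1.4% for those given 0.5 mg/kg. The 5.11%, 6.18% and 6.99% of genes under the unadjusted threshold lie above the share set by that threshold, least at 50 mg/kg and most at 0.5 mg/kg. Without replicates 1 and 2 at 0.5 mg/kg, the share at that dose was 11%. The 3 comparisons share their 5 controls and are not independent.

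**Figure D3:**
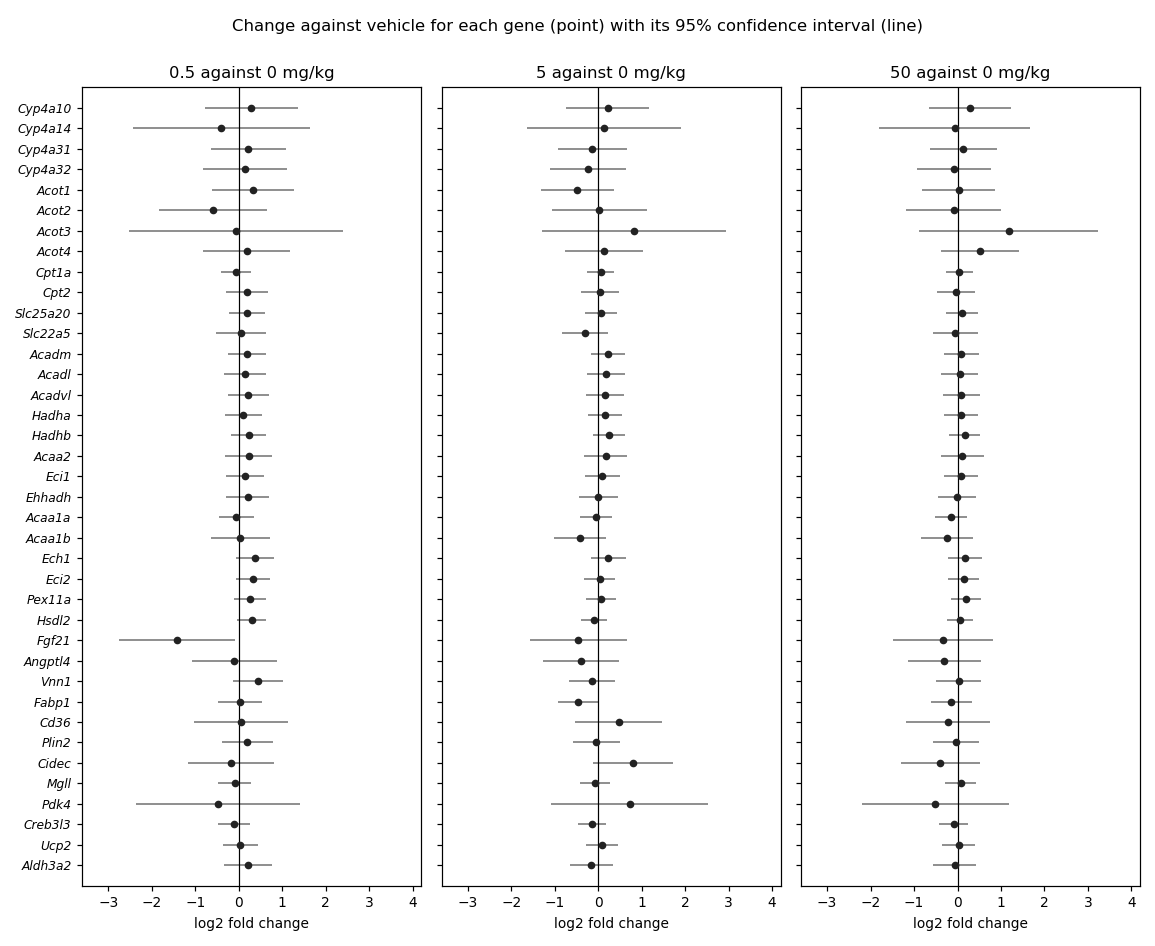
Log2 fold change of each of the 38 genes against 0 mg/kg at 0.5, 5 and 50 mg/kg (points) with 95% confidence intervals (lines), from edgeR with the run as a term. Intervals are narrow for the mitochondrial genes and wide for Cyp4a14, Acot3 and Pdk4, and 1 of them, that of Fgf21 at 0.5 mg/kg, leaves out 0.

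At 50 against 5 mg/kg, which uses no controls, 0 of 38 were called (0% of all genes). Cidec alone had an unadjusted p under 0.05 (4.85% of all genes; 1 gene by DESeq2), at -1.20 ± 0.38 (adjusted p = 0.962, edgeR). Pdk4 stood at -1.23 ± 0.74, Cd36 at -0.69 ± 0.42, Fabp1 at 0.31 ± 0.20 and Acot1 at 0.50 ± 0.35. Without replicates 6 and 8 at 5 mg/kg, Cidec stood at -0.14 ± 0.17, Pdk4 at 0.48, Cd36 at 0.18 and Fabp1 at 0.11, and 0 of 38 had an unadjusted p under 0.05 (3.34% of all genes). In the lower-numbered run alone, which does not hold those libraries, Pdk4 stood at 1.36, Cd36 at 0.22 and Fabp1 at -0.08. Positive values were found in 20 of 38 (49.3% of all genes), and in 29 of 38 without those 2 libraries (51.8% of all genes).

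Across the rank of the 4 doses, 0 of 38 were called (0.0139% of all genes, Zbtb16 and Hspa1b), 0 had an unadjusted p under 0.05 (4.26% of all genes; 0 by DESeq2) and 20 of 38 were positive (50.6% of all genes). Per step of dose the log2 value was 0.44 ± 0.30 for Acot3, -0.11 ± 0.09 for Acaa1b, 0.16 ± 0.13 for Acot4, -0.08 ± 0.07 for Fabp1 and -0.11 ± 0.12 for Angptl4. In the higher-numbered run alone, with its single control, Acot3 stood at -0.29 and Acot4 at -0.11, and in the lower-numbered run alone Angptl4 stood at 0.01. For 36 of 38 genes the interval per step lay within 1.5-fold. Without replicates 1 and 2 at 0.5 mg/kg, 12 of 38 were positive (49.9% of all genes). Without replicates 6 and 8 at 5 mg/kg, 21 of 38 were (50.7% of all genes).

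Between the runs of mouse numbers (619 to 632 against 601 to 616, with dose as a term), 0 of 38 were called (0.0902% of all genes, 13 genes). Under an unadjusted p of 0.05 there were 5, all higher in the higher-numbered run (7.98% of all genes; 6 by DESeq2 and 4 by limma-voom): Pdk4 at 1.52 ± 0.61, Plin2 at 0.42 ± 0.18, Fgf21 at 0.87 ± 0.40, Cidec at 0.66 ± 0.31 and Acadm at 0.28 ± 0.14, with adjusted p-values of 0.492 to 0.624 by edgeR. Positive values were found in 27 of 38 (54% of all genes), and in 28 of 38 without replicates 6 and 8 at 5 mg/kg (52.5% of all genes). Without replicates 1 and 2 at 0.5 mg/kg, both of the lower-numbered run, 19 of 38 were positive (53.7% of all genes), with a median of -0.009. In that refit 5 of 38 were under 0.05 (8.09% of all genes), and only 2 of them were positive. Without replicates 6 and 8 at 5 mg/kg, Cidec stood at -0.03, Pdk4 at 0.63 ± 0.36, Plin2 at 0.34, Fgf21 at 0.81 and Acadm at 0.23, and none of these 5 had an unadjusted p under 0.05. Of the 38, 2 then did, Acot3 at -1.81 ± 0.77 and Acot4 at -0.69 ± 0.32 (6.95% of all genes). The genes that did pass here include clock genes: of 17 clock genes listed, Npas2 at 3.46 ± 0.56 (adjusted p = 0.00988) and Arntl at 1.30 ± 0.26 (adjusted p = 0.0490) were higher in the higher-numbered run, and 15 of 17 had an unadjusted p under 0.05. Without replicates 6 and 8 at 5 mg/kg, Npas2 (3.37, adjusted p = 0.0158) was the only one to pass, and 12 of 17 were under 0.05. Several of the 38 genes cycle over the day in liver as textbook knowledge has it; the part of sampling time in their values was not tested.

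The difference between 50 and 5 mg/kg was compared between the runs over the 16 mice at these doses. Of the 38 genes, 0 passed (0% of 13418 genes), and 8 had an unadjusted p under 0.05, 1 positive and 7 negative (4.89% of all genes; 8 by DESeq2 and 6 by limma-voom). Values were positive in 10 of 38 (48.3% of all genes), with a median of -0.19 (all genes -0.01). Cyp4a32 had the smallest p, at -1.97 ± 0.47 (adjusted p = 0.982, edgeR). In the lower-numbered run Cyp4a32 stood at 47, 20, 25.5 and 37.5 CPM at 5 mg/kg and at 23.4, 81, 78.5 and 75.9 CPM at 50 mg/kg; in the higher-numbered run it stood at 39.1, 40.2, 43.3 and 30.3 CPM against 15.3, 18.3, 16.4 and 28.6 CPM. Only the higher-numbered run's doses did not overlap. Without replicate 1 at 50 mg/kg, the low mouse of the lower-numbered run, the value was -2.25 with an adjusted p of 0.0459, so the call turns on that mouse.

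Next by p in that comparison were Pdk4 at -4.40 ± 1.148, Angptl4 at -1.45 ± 0.54, Slc22a5 at -0.84 ± 0.34 and Fabp1 at 0.83 ± 0.36, followed by Cidec, Cd36 and Cyp4a31. Pdk4, Cidec, Cd36 and Fabp1 are the genes set apart in the 2 libraries with adipocyte markers, both of the higher-numbered run at 5 mg/kg. Without them Pdk4 stood at -1.98 ± 0.69, Fabp1 at 0.56 ± 0.39, Cidec at 0.21 ± 0.38 and Cd36 at -0.01 ± 0.51, against -1.85 for Cidec and -1.78 for Cd36 with them. Then 3 of 38 had an unadjusted p under 0.05 (2.7% of all genes), Cyp4a32 at -2.07 ± 0.53, Pdk4 and Angptl4, and 18 of 38 were positive (52.2% of all genes). Angptl4 was, with Cyp4a32, a gene whose mice of the higher-numbered run did not overlap, at 75.8, 57.4, 56.5 and 112 CPM at 5 mg/kg and 31.4, 51, 48.1 and 54.6 CPM at 50 mg/kg. Such separation was found in 2 of 38 genes in that run (2.33% of all genes) and in 0 of 38 in the lower-numbered run (2.03% of all genes). In the lower-numbered run the Angptl4 mice overlapped, at 46.6, 47.6, 29.2 and 87.8 CPM against 31, 90.8, 101 and 122 CPM.

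Some mice were high or low in many of the 38 genes at once. Control replicate 3 held the highest level of the 5 controls in 30 of 38 genes, against 18.9% of all tested genes, and the lowest in 0 (18.7% of all genes). Its deviation from the median mouse, as the median log2 difference over genes, was 1.61 for the thioesterases, 0.87 for the omega-hydroxylases and 1.26 for Fgf21, Angptl4 and Vnn1, but 0.30 for the carnitine shuttle, 0.25 for mitochondrial beta-oxidation and 0.00287 for all tested genes. Replicate 4 at 0.5 mg/kg deviated by 1.14 for the omega-hydroxylases and 0.64 for the thioesterases, and by 0.69 and 0.58 for the shuttle and mitochondrial beta-oxidation. Replicate 6 at 5 mg/kg deviated by 1.34 for the omega-hydroxylases and 0.57 for mitochondrial beta-oxidation. At the other end, replicate 7 at 50 mg/kg was lowest of its dose in 20 of 38 genes (20.8% of all genes), with -0.60 for mitochondrial beta-oxidation and 0.54 for the thioesterases.

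**Figure D4:**
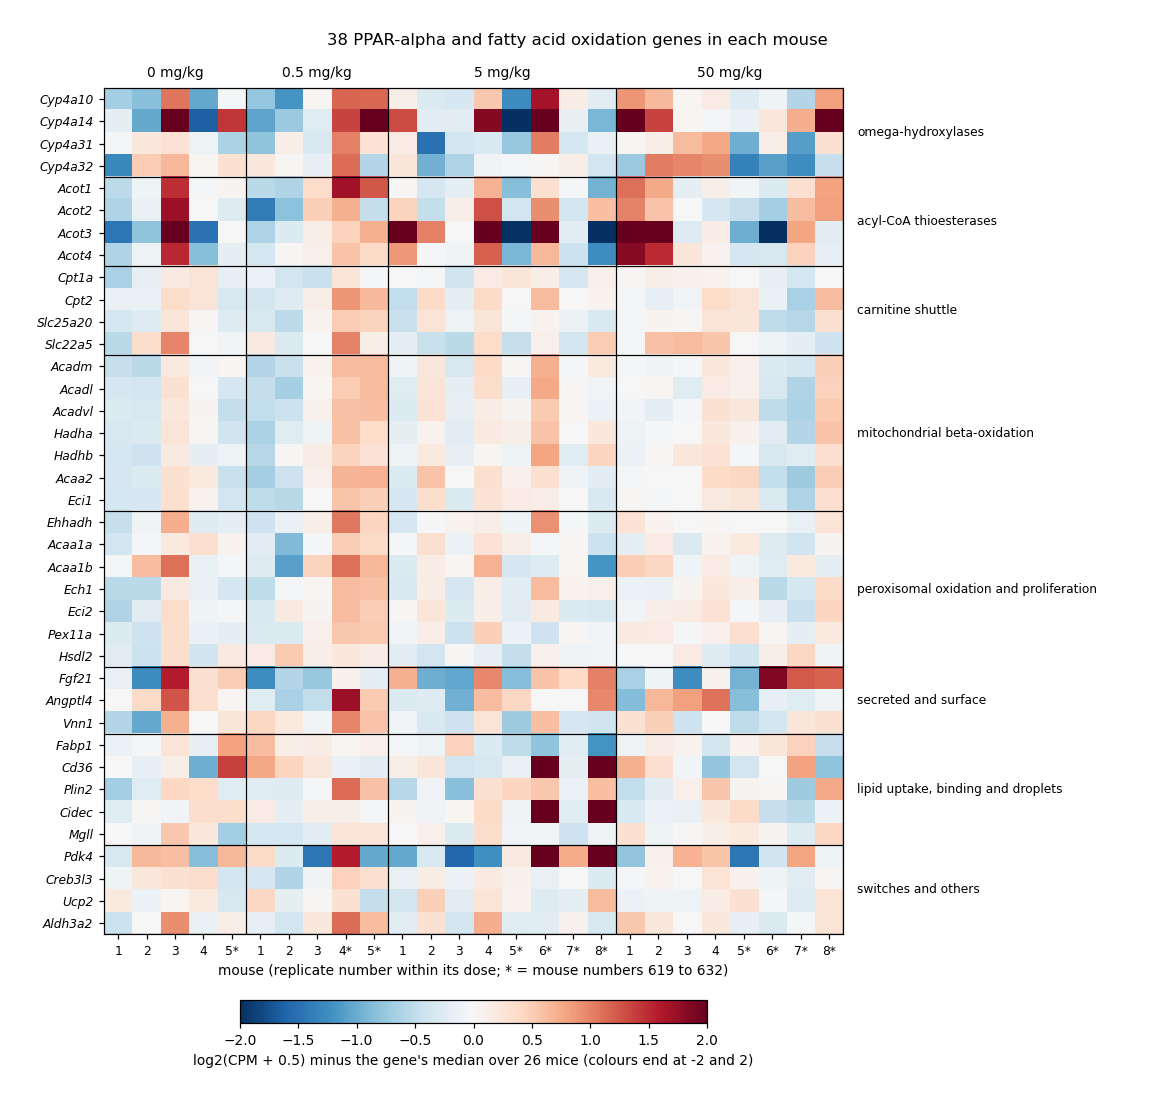
Log2(CPM + 0.5) of the 38 genes in each mouse minus the gene's median over 26 mice (colour, with the scale ending at -2 and 2); columns are mice by dose and replicate, rows are genes grouped by role. Columns such as control replicate 3 and replicate 4 at 0.5 mg/kg are high across many rows, and no dose forms a block.

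The spread differed among the roles. The median SD over mice of log2(CPM + 0.5) was 0.76 for the omega-hydroxylases, 0.75 for the thioesterases and 0.68 for the secreted and surface products, 0.50 for lipid uptake, binding and droplets, 0.36 for mitochondrial oxidation, 0.35 for the switches and others, 0.34 for the carnitine shuttle and 0.30 for peroxisomal oxidation. Within a role it could vary as much: Pdk4 had 1.32 and Creb3l3 0.25 among the switches, and Cd36 0.81 and Mgll 0.28 among the lipid genes. It was 0.41 over the 38 genes and 0.33 over all tested genes. Acot3, with the largest SD (1.60), had a median of 2.38 CPM, and Cyp4a14, the next (1.41), had 101 CPM.

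Cyp4a14 was then related to every other tested gene over the 26 mice (log2(CPM + 0.5), 100000 permutations, two-sided, Benjamini-Hochberg over 14414 genes). Of the other 37 genes described here, 36 had a positive Pearson's r (49.7% of all genes), with a median r of 0.40 (all genes -0.00202). Of them 6 passed an adjusted p of 0.05, all positive, against 0.43% of all genes. By Spearman's rho 2 passed, against 0.125%.

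Cyp4a10 was first of the 14414 genes, with r = 0.903 (adjusted permutation p = 0.012) and rho = 0.867 (adjusted permutation p = 0.0288). Acot1 was in place 4, with r = 0.761 (adjusted permutation p = 0.017) and rho = 0.787 (0.0393). Acot3 followed with r = 0.745 (0.017) and rho = 0.703 (0.0587), and Acot4 with r = 0.739 (0.012) and rho = 0.714 (0.0577). Vnn1 had r = 0.695 (0.0266) and rho = 0.666 (0.0824), and Ehhadh r = 0.67 (0.039) and rho = 0.651 (0.127). By contrast Cpt1a had r = 0.202, Pdk4 0.128, Angptl4 0.125, Cyp4a32 0.065 and Fabp1 0.0295, and Ucp2, a mitochondrial uncoupling protein, had r = -0.364. By role the median r was 0.74 for the thioesterases, 0.455 for the secreted and surface products, 0.45 for peroxisomal and 0.44 for mitochondrial oxidation. It was 0.43 for the other 3 omega-hydroxylases, 0.32 for the carnitine shuttle, 0.19 for lipid uptake and droplets and 0.13 for the switches and others.

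Within the lower-numbered run (15 mice), r was 0.922 for Cyp4a10, 0.824 for Acot1, 0.913 for Acot3, 0.939 for Acot4, 0.532 for Vnn1 and 0.652 for Ehhadh, and 3 of the 37 genes passed (0.0624% of all genes). By Spearman's rho 0 of the 37 passed there (0% of all genes). Within the higher-numbered run (11 mice) r was 0.881, 0.716, 0.837, 0.816, 0.84 and 0.662 for the same genes in that order. There 0 of the 37 passed by either coefficient (0% of all genes), and 10 had an unadjusted permutation p under 0.05, against 4.09% of all genes. Without the 2 mice farthest from the median of Cyp4a14 (replicate 6 at 5 mg/kg and replicate 5 at 0.5 mg/kg), r was 0.866, 0.805, 0.756, 0.787, 0.647 and 0.552. Again 0 of the 37 passed by either coefficient (0% of all genes), with 14 under an unadjusted p of 0.05 (6.07% of all genes). The smallest p that the permutations can give is 1e-05, and over 14414 genes at least 3 genes must share it for any to pass. Without the 2 libraries with adipocyte markers r was 0.889, 0.821, 0.721, 0.756, 0.664 and 0.571.

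**Figure D5:**
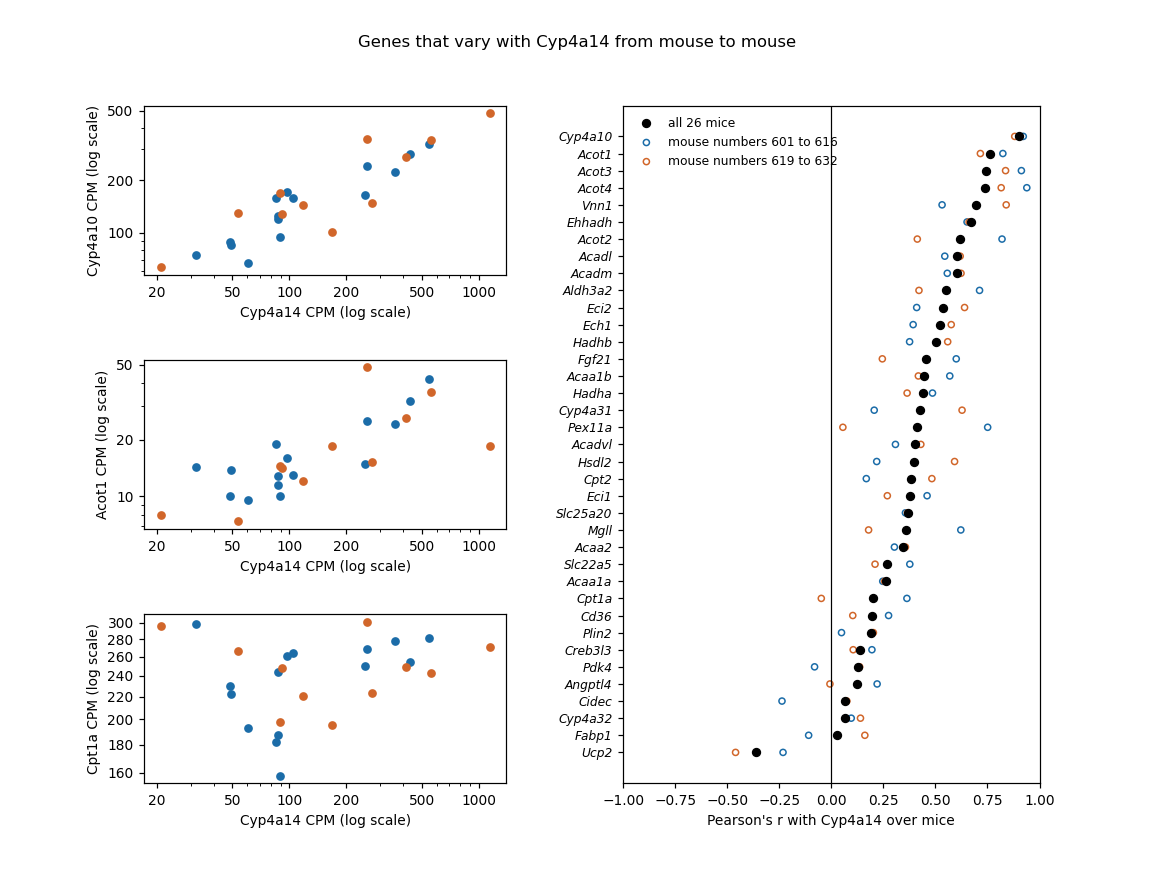
Left, CPM of Cyp4a10, Acot1 and Cpt1a against Cyp4a14 in each mouse (log scales, blue for numbers 601 to 616, orange for 619 to 632); right, Pearson's r with Cyp4a14 for the other 37 genes over all 26 mice (black) and within each run (open, in the colours of the runs). Cyp4a10 stands at 0.903 and Ucp2 at -0.364, with 36 of the 37 above 0.

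The summed hepatocyte markers were taken as another measure of each library. They were related at an adjusted permutation p under 0.05 to 13 of the 38 genes, all positive, against 22.9% of all genes, and r was above 0 for 34 of 38 (48.1% of all genes). Over all 26 mice all 7 mitochondrial beta-oxidation genes passed, with r of 0.555 to 0.818. None of the 4 thioesterases or 4 omega-hydroxylases did, with r of 0.181 to 0.48. Within the lower-numbered run 0 of the 38 passed (0.562% of all genes), and 0 by Spearman's rho (0.521%). An unadjusted p under 0.05 was found there for 3, against 12.7% of all genes. There r was 0.143 to 0.768 for the mitochondrial genes, 0.0367 to 0.137 for the thioesterases and 0.0382 to 0.175 for the omega-hydroxylases. Within the higher-numbered run 11 passed (10.2% of all genes), among them 6 mitochondrial genes and 1 omega-hydroxylase. In that run r was 0.773 to 0.938 for the mitochondrial genes, 0.535 to 0.626 for the thioesterases and 0.336 to 0.805 for the omega-hydroxylases. The sum is led by Alb, so that it also follows that gene's own level; its part in the values of the 38 genes was not tested.

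The rest of the pathway gave no call in a dose comparison. At 50 against 0 mg/kg, 51.1% of all tested genes were positive and 5.11% were under an unadjusted p of 0.05. Of 24 other beta-oxidation enzymes, 0 passed at 50 against 0 mg/kg, with 17 positive, a median of 0.10 and 0 under an unadjusted p of 0.05. Of 7 ketone body genes 0 passed (5 positive, median 0.14, 0 under 0.05). Of 31 other tested PPAR-alpha targets 0 passed (15 positive, median -0.04, 1 under 0.05), the first by p being Cyp4f17 at -0.48 ± 0.17. At 0.5 against 0 mg/kg, 2 of the 24 enzymes were under 0.05 (6.99% of all genes) and 18 were positive (50.8%). Without replicates 1 and 2 at that dose, 7 of the 24 were under 0.05, all positive (11% of all genes in either direction). Then 21 of the 24 were positive (46.3% of all genes), and 0 passed. Those 2 mice deviated by -0.342 and -0.189 over the 24 enzymes. In that refit 1 of the 7 ketone body genes and 0 of the 31 targets were under 0.05, with 6 and 20 positive.

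Of 18 genes for the receptor and its partners, 0 passed at 50 against 0 mg/kg. Of the 18, 7 were positive (51.1% of all genes), with a median of -0.03. An unadjusted p under 0.05 was found for 3 of them (5.11% of all genes). These were Ppard, the sister receptor PPAR-delta, at -0.60 ± 0.18, Lpin1, a phosphatidate phosphatase and coactivator, at -0.80 ± 0.25, and the coactivator Ppargc1b at -0.63 ± 0.26, with adjusted p-values of 0.709 to 0.914 by edgeR. At 0.5 against 0 mg/kg 5 of the 18 were under 0.05 (6.99% of all genes), led by the same 3 at -0.65, -0.85 and -0.94 in that order. Both comparisons use the same 5 controls, in which mean levels were 14.05, 84.9 and 10.3 CPM. The means were lowest at 0.5 mg/kg, at 9.315, 47.2 and 5.39 CPM. They were 11.95, 59.6 and 8 CPM at 5 mg/kg and 9.91, 49 and 6.74 CPM at 50 mg/kg. Of 20 feeding and fasting genes 0 passed at 50 against 0 mg/kg, with 7 positive, a median of -0.08 and 0 under 0.05. Of 8 acute phase genes 0 passed at 0.5 against 0 mg/kg, but 8 were positive (50.8% of all genes), with a median of 2.66. Of them 7 had an unadjusted p under 0.05 (6.99% of all genes). Without replicates 1 and 2, the mice of high Saa1, 0 of the 8 were under 0.05 (11% of all genes). Then 6 were positive (46.3% of all genes) and the median was 0.19. At 50 against 0 mg/kg 0 of these 8 passed (7 positive, median 1.002, 0 under 0.05), and of the 17 clock genes 0 passed (9 positive, median 0.12, 3 under 0.05). For each list at 50 against 0 mg/kg, the shares over all genes are 51.1% positive and 5.11% under 0.05.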

How the data were processed

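RNA was taken from the liver of 26 mice and sequenced with 1 library per mouse. The deposited values are whole-number gene counts, made by the authors with featureCounts on mm10 after bcl2fastq, per the submitters' processing notes; aligner, annotation, strand setting and versions are not given in the sources used here. The 26 files of single mice equal the combined table, which was used. Symbols came from that table, and mm10 positions and exon lengths from GENCODE M21. Without a stated strand setting, reads of genes that overlap on opposite strands cannot be told apart.

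The genes and all lists were chosen with earlier results of these data known. Genes with enough counts by edgeR's filter (14415, with 99.7% of counts) were fitted by edgeR 4.0.16 (quasi-likelihood, robust, TMM, R 4.3.3) with dose and run terms over all mice; the interaction used the 16 mice at 5 and 50 mg/kg. DESeq2 1.42.0 and limma 3.58.1 were alternatives, as were other scaling, no filter, no run term, each run alone, and leaving out mice; refits of the other lists and of all 38 genes without the libraries that stand apart were chosen after seeing the data. Fits and correlations were tested on simulated data. Correlations used log2 (CPM + 0.5), and their p-values were adjusted over all genes, whereas the plan had adjusted over the 37 genes. Nothing says that mice were dosed or housed independently, so p-values measure the spread between these mice. No 2 libraries of a dose agreed within sampling noise (chi-square per degree of freedom of 12 to 124 over 76 pairs). Named were called genes or, where none was called, the 5 smallest p-values of each comparison, beside Cyp4a14, Cyp4a10, Pdk4, Fgf21 and Cpt1a, and up to 3 genes of each other list.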

Additional observations from a re-analysis of the deposited data

Results flagged for a closer look

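Within each dose, each of the 38 genes was screened for a highest or lowest mouse far from its neighbours, as a gap that takes most of the dose's whole range. Of 152 gene and dose combinations, 10.5% held such a mouse; chance flags about 1 in 20 groups of independent, normally distributed values, whereas CPM are skewed upward and the genes share mice. All 16 were a highest value. Control replicate 3 gave 6 of them: Acot1 at 41.7 CPM (next control 15.2), Acot2 at 5.49 (1.34), Acot3 at 16.5 (2.37), Acot4 at 132 (42.9), Ehhadh at 299.6 (171) and Angptl4 at 138 CPM (74.7). Replicate 6 at 5 mg/kg, a library with adipocyte markers, gave 6: Cyp4a14 at 1146 CPM (next mouse 362), Cyp4a10 at 484 (222), Cyp4a31 at 13.1 (6.98), Hadha at 403 (312), Ehhadh at 339 (195) and Ech1 at 391 CPM (278). Its adipocyte markers summed to 372 CPM and its hepatocyte markers to 123300 CPM, and their part in these values was not tested.

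The other 4 came from 4 mice: Cd36 at 100.1 CPM in control replicate 5, Fabp1 at 6747 CPM in replicate 1 and Hsdl2 at 151 CPM in replicate 2 at 0.5 mg/kg (both libraries with high Saa1), and Slc22a5 at 44.1 CPM in replicate 4 at 0.5 mg/kg.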

How the results depend on the processing

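No paired analysis was possible because replicate numbers only follow accession order. The count of the 38 genes called was 0 in 229 of 230 alternatives; the exception was 1 gene, Cyp4a32, in the comparison of the 50 to 5 mg/kg difference between runs (0 to 1 when a mouse was left out, 1 without replicate 1 at 50 mg/kg). Of 1150 alternative values of 35 named fold changes, 1137 kept direction and side of the threshold, and 12 reversed, none when 1 mouse was left out. On the log2 scale, the higher-numbered run alone, with 1 control mouse, gave -0.30 for Acot3 at 50 against 0 mg/kg and, per dose step, -0.29 for Acot3 and -0.11 for Acot4. The lower-numbered run alone gave Fabp1 0.0334 at 5 against 0 mg/kg and, at 50 against 5 mg/kg, Fabp1 -0.081, Pdk4 1.36 and Cd36 0.22, with Angptl4 at 0.0126 per dose step. Without replicates 6 and 8 at 5 mg/kg, Cidec stood at -0.0802 at 5 against 0 mg/kg and at -0.0347 between runs, and at 50 against 5 mg/kg Pdk4 stood at 0.48 and Cd36 at 0.18. The cause was not tested.

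The 6 genes related to Cyp4a14 (0.43% of all genes) became 3 within the lower-numbered run (0.0624%) and 0 within the higher-numbered run (0%). They became 0 without the 2 mice farthest from the median (0%) and 3 without replicates 6 and 8 at 5 mg/kg (0.0833%). Each of these settings has fewer mice. Over all genes, calls between runs numbered 13 by edgeR, 108 by DESeq2, 1 by limma-voom, 3 without the dose term and 2 to 60 when a mouse was left out. At 50 against 0 mg/kg they numbered 1 by edgeR, 3 by DESeq2, 4 in the lower-numbered run alone and 0 in the other (1 control) or with no run term. At 0.5 against 0 mg/kg they numbered 0, 7 by DESeq2 and 33 in the lower-numbered run alone, and at 5 against 0 mg/kg 0 and 4 by DESeq2. The dose trend gave 2, 3 by DESeq2 and 0 in the higher-numbered run alone.

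Depth limits Acot2 and Acot3, which rest on as little as 1 count in a library, and Fgf21, with as few as 4.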

Other observations

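Among the genes most related to Cyp4a14 over the 26 mice were several outside the 38, as a description with mice as the shared points: Gsta2 had r = 0.825, Tcf24 0.775, Renbp 0.759, Mgst3 0.752, Gsta4 0.746 and Gstm2-ps1 0.744. Gsta2, Gsta4 and Mgst3 belong to the glutathione transferases, which conjugate reactive compounds to glutathione.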
